A study of Mus musculus with 10 samples.

Results

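The circadian clock genes examined here are Per1, Per2, Per3, Cry1, Cry2, Clock, Dbp, Tef, Nr1d2 and Bhlhe40. They were taken by name, as all probe sets whose single annotated symbol is one of these 10, out of 8251 genes with a symbol of their own on the array. The 10 genes are read by 12 probe sets, 3 for Cry1 and 1 for each other gene. The samples are visual cortex of wild-type C57Bl6 mice that lost one eye at postnatal day 14 and were killed at postnatal day 18, after 4 days. Deprived cortex (5 samples) lay opposite the missing eye, on the side to which most axons of that eye cross. Non-deprived cortex (5 samples) lay on the same side as the missing eye. Both groups therefore carry the same surgery, and there is no intact control. The design text calls the samples pooled and the extraction protocol names 4 mice. The sources used here do not give the division of animals over the samples, the hour of dissection or the light schedule. The p-values therefore measure sample-to-sample spread only, and some of it may be technical. Those of the main fit, the permutations and the correlations treat the 10 arrays as independent. Whether arrays with the same replicate number share animals is not given, so this assumption could not be checked against the design.

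The mammalian clock is a feedback loop of transcription. CLOCK, or in forebrain its counterpart NPAS2, pairs with BMAL1 (gene Arntl). The pair binds E-box sequences and drives the Per and Cry genes, whose proteins return to the nucleus and inhibit the same activators. Bhlhe40 (DEC1) competes for E-boxes, Nr1d2 (REV-ERB beta) represses through ROR elements, and the PAR bZIP factors DBP and TEF are outputs that act on D-boxes. Most tissues, the cortex among them, carry this loop. Per1 is also an early-response gene in neurons, induced through cAMP response elements, and Bhlhe40 is likewise inducible by stimulation. The comparison thus asks whether clock transcripts differ between hemispheres with and without input from their main eye.

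Sequence before the start is shown for Per1, Per3 and Cry1, whose windows hold letter matches to the E-box, the D-box or the core of the cAMP response element. RefSeq promoter windows (GRCm38.p6) were found for 8 of the 10 genes, with 12 annotated starts; Per2 and Bhlhe40 have none in the table. The 250 bases before each start were searched on both strands. The E-box CACGTG lay in 4 of the 12 windows (Per1, Cry1 and both starts of Tef), against 6.02% of all 32851 windows. The D-box TTATGTAA lay in the Per3 window alone, at 205 and 158 bases before the start, against 0.819% of all windows. The core of the cAMP response element, TGACG, lay in 4 windows (both starts of Per1, Cry1 and Cry2; 17.8% of all windows), and the full element TGACGTCA in none of the 12 (1.55% of all). The RORE core AGGTCA lay in 3 (Per1, Clock and Nr1d2; 14.02% of all), and the variant E-box CACGTT in 2 (Cry1 and Cry2; 3.85% of all). The D-box form TTACGTAA lay in none of the 12, against 0.113% of all. A match is a description of the letters and not a site of binding. In the windows below, written 5′ to 3′ on the strand of the gene, capitals mark these matches. The Per1 windows lie at chr11:69098699-69098948 and chr11:69099902-69100151 on the plus strand. The Per3 window is chr4:151044666-151044915 and the Cry1 window chr10:85185055-85185304, both on the minus strand.
Per1, first start: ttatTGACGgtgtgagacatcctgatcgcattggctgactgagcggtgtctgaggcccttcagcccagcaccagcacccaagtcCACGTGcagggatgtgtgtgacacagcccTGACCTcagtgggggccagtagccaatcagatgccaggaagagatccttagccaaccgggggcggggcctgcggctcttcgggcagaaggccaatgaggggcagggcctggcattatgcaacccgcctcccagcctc
Per1, second start: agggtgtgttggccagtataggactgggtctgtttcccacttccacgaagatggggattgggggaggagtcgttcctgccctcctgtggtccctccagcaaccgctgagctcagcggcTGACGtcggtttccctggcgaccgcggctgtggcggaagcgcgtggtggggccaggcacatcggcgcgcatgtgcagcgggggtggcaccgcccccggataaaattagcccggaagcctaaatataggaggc
Per3: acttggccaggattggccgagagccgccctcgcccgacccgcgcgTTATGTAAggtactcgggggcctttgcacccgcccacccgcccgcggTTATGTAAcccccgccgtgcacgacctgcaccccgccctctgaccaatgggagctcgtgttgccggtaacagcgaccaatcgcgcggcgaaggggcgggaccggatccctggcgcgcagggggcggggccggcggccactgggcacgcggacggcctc
Cry1: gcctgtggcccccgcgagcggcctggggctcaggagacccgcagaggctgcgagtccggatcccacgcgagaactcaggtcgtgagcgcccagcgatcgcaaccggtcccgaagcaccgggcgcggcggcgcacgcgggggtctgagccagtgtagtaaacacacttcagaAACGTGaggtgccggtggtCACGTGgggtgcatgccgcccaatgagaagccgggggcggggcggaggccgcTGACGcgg
In the first Per1 window the core of the cAMP response element begins 246 bases, the E-box 166 bases and the RORE core 137 bases before the start. In the second it begins 132 bases before. In Cry1 the variant E-box begins 79 bases and the E-box 60 bases before the start.

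**Figure D1:**
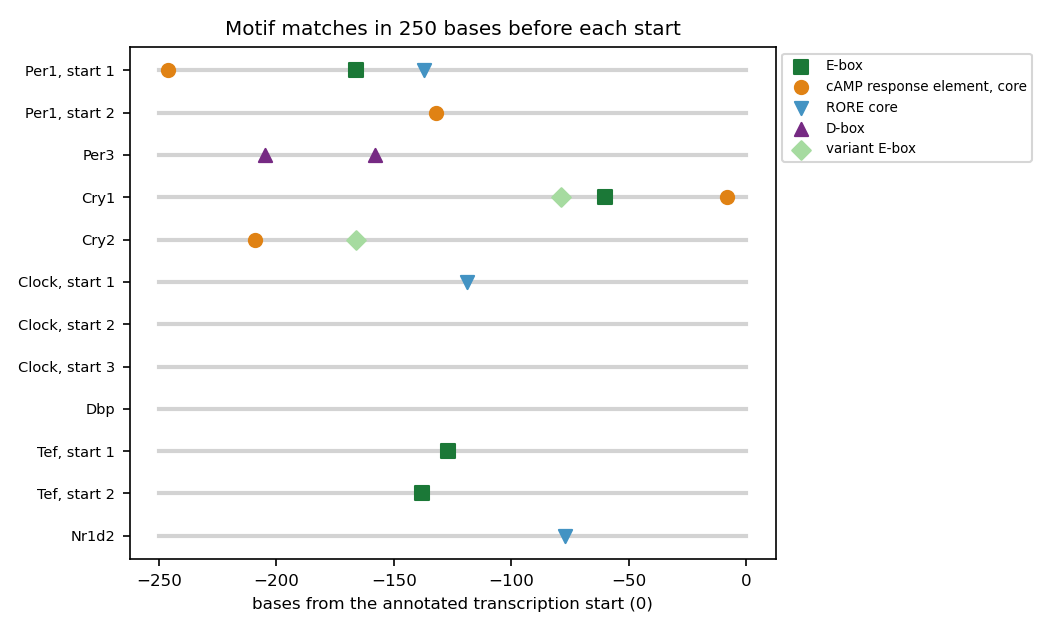
Positions of motif matches (symbols) in the 250 bases before each annotated start of 8 clock genes (grey lines, GRCm38.p6); the x axis is the distance from the start in bases. Per3 holds both D-box matches, at 205 and 158 bases, and the Dbp window and 2 of the 3 Clock windows hold no match.

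None of the clock genes passed the test between deprived and non-deprived cortex. Of the 12 probe sets, 10 (1 per gene) lay above the signal filter and were tested, and the other two, both of Cry1, are near the bottom of the scale. In limma the adjusted p-values over all 7453 tested probe sets ran from 0.992 to 0.996, and no probe set of the 10 had an unadjusted p below 0.05. Over all tested probe sets that share was 4.79% (357), and 0% passed an adjusted p of 0.05. No member had groups with separate signal ranges, against 0.953% of all tested probe sets. Of the 10 differences (deprived minus non-deprived, in log2(signal + 16)), 6 were below 0 and 4 above, with a median of -0.08. Over all 7453 the median was 0.0066, and 48.0% were below 0. All 10 of the 95% intervals contained 0 and all 10 lay within a 1.5-fold change either way (0.58 in log2), as they did for 85.8% of all tested probe sets. Signals are MAS5 units, arbitrary and scaled per array. In bulk tissue, fewer cells of a type and less RNA per cell cannot be told apart.

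**Figure D2:**
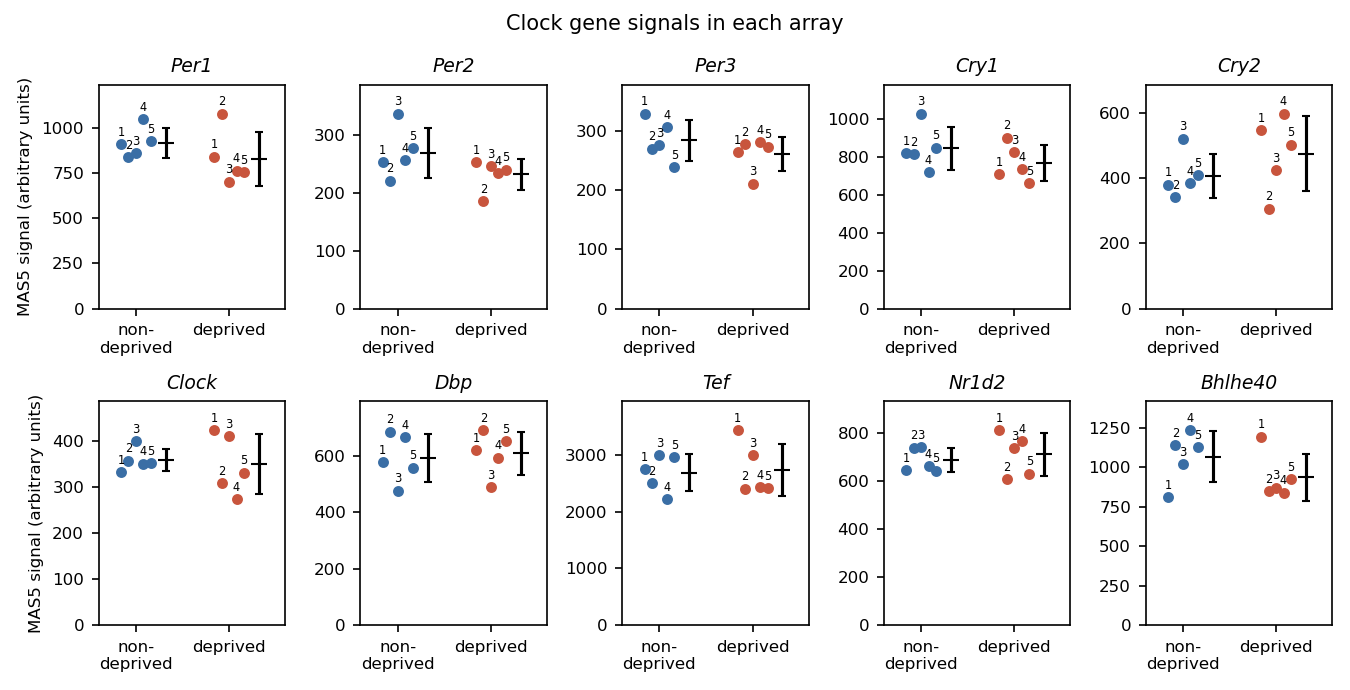
MAS5 signal (arbitrary units, axes from 0) of the tested probe set of each of the 10 clock genes in every array; points carry replicate numbers, blue is non-deprived and red deprived, and the black marks are means with SD (n = 5). The groups overlap in every panel, and in the Bhlhe40 panel the arrays numbered 1 lie opposite to the others.

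Clock, the DNA-binding activator, had signals of 332, 356, 399, 350.2 and 352 in non-deprived replicates 1 to 5, and of 423, 309, 410.1, 273 and 331 in deprived replicates 1 to 5. The deprived arrays spread over both sides of the non-deprived ones (349 ± 65.0 against 358 ± 24.6; SD, n = 5 each). The log2 difference was -0.05 ± 0.13 (SE; exact two-sided permutation p = 0.698). Its partner gene Arntl and its counterpart Npas2 are outside the named set and were read on the same arrays. Arntl, named here after its values were seen, had 652 ± 139 in deprived and 582 ± 69.4 in non-deprived cortex (SD, n = 5 each; log2 0.14 ± 0.14 SE). Npas2, the forebrain counterpart of Clock, had 147 ± 54.9 against 190 ± 30.3 (log2 -0.39 ± 0.22 SE; exact permutation p = 0.167), where deprived replicates 2 and 5 were low (98.9 and 90.6) and deprived replicate 1 was as high as the highest non-deprived array (226).

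The Per genes, which encode the inhibitors of CLOCK-BMAL1, had lower means in deprived cortex in all 3 cases, none past the test. Per1 had signals of 912, 839.7, 862, 1052 and 929.8 in non-deprived replicates 1 to 5. In deprived replicates 1 to 5 they were 843, 1081, 704, 765 and 755. Of the deprived arrays, 3 lay below every non-deprived array, while replicate 2 was the highest of all 10. The means were 830 ± 149 and 919 ± 82.9 (SD, n = 5 each), a log2 difference of -0.16 ± 0.11 (SE) with an interval from 24.4% lower to 6.39% higher in deprived cortex (exact permutation p = 0.238). Without deprived replicate 2 the difference was -0.25, with a limma adjusted p above 0.05.

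Per2 had signals of 252.4, 221, 337, 256 and 277.5 in non-deprived and of 253, 186, 246, 234 and 240.1 in deprived replicates 1 to 5. The lowest array was deprived, and non-deprived replicates 3, 4 and 5 lay above every deprived array. Non-deprived replicates 1 and 2 fell inside the deprived range. The means were 232 ± 26.8 and 269 ± 43.1 (SD, n = 5 each; log2 -0.19 ± 0.13 SE; exact permutation p = 0.159), the smallest exact p of the 10 genes. The interval ran from 28.2% lower to 6.32% higher in deprived cortex. Per3, the member of the family that is least needed for rhythm, had 329, 270.4, 276, 307 and 239 in non-deprived and 265, 277, 211, 281 and 274 in deprived replicates 1 to 5. Here 4 of the 5 deprived arrays fell inside the non-deprived range (log2 -0.11 ± 0.12 SE; exact permutation p = 0.333). No difference in response between the 3 genes was detected: the within-array log2 difference of Per1 and Per2 shifted by 0.04 ± 0.21 (SE), that of Per1 and Per3 by -0.04 ± 0.12, and that of Per2 and Per3 by -0.08 ± 0.18, each with an exact permutation p adjusted over 5 paralog pairs of 0.944.

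The 2 Cry genes, partners of the PER proteins in the inhibitory complex, had means on opposite sides. Cry1 on its bright probe set, one of a sequence family, had 820.4, 815, 1029.5, 721 and 849 in non-deprived and 710.4, 902, 825, 737 and 662 in deprived replicates 1 to 5 (means 847 ± 113 and 767 ± 95.9; SD, n = 5 each). Of the deprived arrays, 2 were below the whole non-deprived range and 3 inside it (log2 -0.14 ± 0.11 SE; exact permutation p = 0.262). The other two Cry1 probe sets, both of relaxed design rules, had signals of 0.6 to 17.6 and of 1.3 to 19.4, among the lowest 3% of the table, so they give no independent reading. Cry2 had 379.7, 342, 520.5, 383 and 409 in non-deprived and 547, 306, 423, 597 and 502 in deprived replicates 1 to 5. Deprived replicate 2 was the lowest of the 10 arrays and deprived replicates 1 and 4 were the highest. The means were 475 ± 114 and 407 ± 67.9 (SD, n = 5 each; log2 0.19 ± 0.17 SE; exact permutation p = 0.349), with an interval from 10.5% lower to 46.4% higher in deprived cortex. The response of Cry1 relative to Cry2 was -0.33 ± 0.24 (SE), with an exact permutation p of 0.151 and, adjusted over the 5 pairs, of 0.754.

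Bhlhe40, the E-box repressor, had signals of 810.5, 1142, 1020.3, 1236 and 1128 in non-deprived replicates 1 to 5. In deprived replicates 1 to 5 they were 1195, 848.5, 872, 841 and 924. In replicates 2 to 5 every deprived array was below every non-deprived array, and the replicates numbered 1 were the other way round, the lowest and the second highest of the 10. The means were 936 ± 148 and 1067 ± 163 (SD, n = 5 each; log2 -0.18 ± 0.13 SE; exact permutation p = 0.222). Leaving out either array numbered 1 alone gave differences down to -0.28, and no adjusted p passed 0.05. In the 10 tested early genes of activity, listed with their own differences known, deprived replicate 1 was below non-deprived replicate 1 in all 10. Every deprived array was below every non-deprived array in 7 of them, which fixes the order of the arrays numbered 1 there. Over all tested probe sets, 0.953% had separate ranges in either direction. The groups overlapped in 3 early genes (Fosb, Nr4a1 and Dusp1). The cause of the reversed order in Bhlhe40 was not tested.

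Nr1d2, a repressor of the activator arm, had 646.5, 738, 741, 663 and 643.5 in non-deprived and 812, 607, 738, 766 and 631 in deprived replicates 1 to 5. The deprived arrays extended beyond the non-deprived range at both ends (log2 0.04 ± 0.10 SE; exact permutation p = 0.659). Its spread within groups, an SD of 0.14 in log2, was the smallest of the 10 genes. Its close relative Nr1d1 (REV-ERB alpha), outside the named set, had 382 ± 88.2 in deprived and 304 ± 62.2 in non-deprived cortex (SD, n = 5 each; log2 0.31 ± 0.17 SE; exact permutation p = 0.159).

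The output factors Dbp and Tef had nearly equal means. Dbp, whose transcript is known for a large daily swing in many tissues, had 578.5, 688, 477.5, 667 and 559 in non-deprived and 621, 692, 489.6, 594 and 653 in deprived replicates 1 to 5. Replicate 2 was the highest and replicate 3 the lowest array in both groups. The means were 610.04 ± 76.6 and 594 ± 85.5 (SD, n = 5 each; log2 0.04 ± 0.12 SE; exact permutation p = 0.73). Tef had 2763, 2508, 3011, 2231 and 2969.8 in non-deprived and 3446.5, 2415, 3005.5, 2443 and 2426 in deprived replicates 1 to 5. Only deprived replicate 1 lay outside the non-deprived range (log2 0.02 ± 0.12 SE; exact permutation p = 0.897), and the sign turned to -0.01 under median scaling. The within-array difference of Dbp and Tef shifted by 0.02 ± 0.23 (SE; exact permutation p adjusted over the 5 pairs of 0.944).

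Further genes of the loop, or acting on it, gave the same count on their brightest probe sets. Of 34 further symbols listed, 21 were on the array and 20 were tested, each read here on its brightest probe set. The list holds activators, nuclear receptors, RNA-binding proteins, and kinases, phosphatases and ubiquitin ligases acting on PER and CRY proteins. It counts Arntl under both of its names, Arntl and Bmal1. On these 20 probe sets none had a limma p under 0.05 in either direction, adjusted or not; their median was -0.02, with 8 values above 0 and 12 below. Over all 34 tested probe sets of the 20 genes, 1 was lower in deprived cortex at an unadjusted limma p under 0.05 and none passed after adjustment. It was the dimmer of the probe sets of Nfil3, a repressor at D-boxes, with a log2 difference of -0.35 ± 0.15 (SE). The brightest, one of a sequence family, gave 0.02 ± 0.14. The probe sets of this gene thus disagreed, and what each of them detects was not tested. Among the brightest probe sets, after Npas2 and Nr1d1, the smallest p belonged to Sfpq, an RNA-binding protein found with PER complexes (log2 -0.16 ± 0.10 SE). The brightest members were Gsk3a, a kinase of clock proteins, at 14824 ± 2257 and 14939 ± 1822, and Ppp1cb, a phosphatase catalytic subunit, at 2923 ± 350 and 3134 ± 253 in deprived and non-deprived cortex (SD, n = 5 each). Of 22 listed genes of clock output or temperature response, 17 were on the array and 15 were tested on their brightest probe set. Of these 15, 1 was higher and 1 lower at an unadjusted limma p under 0.05, and none passed after adjustment. Over all tested probe sets, 4.79% had such a p in either direction. The higher gene was Tspo, of the outer mitochondrial membrane, with a log2 difference of 0.21 ± 0.10 (SE; exact permutation p = 0.0317). The lower gene was the heat-inducible chaperone Hspa1a, with -0.62 ± 0.26 (exact permutation p = 0.0794). Hspa1b, of the same list, had -0.08 ± 0.17. The next smallest p belonged to the chaperone Hsph1 (-0.16 ± 0.10). The brightest, Hsp90aa1 and Hspa8, had -0.15 ± 0.14 and -0.11 ± 0.07.

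**Figure D3:**
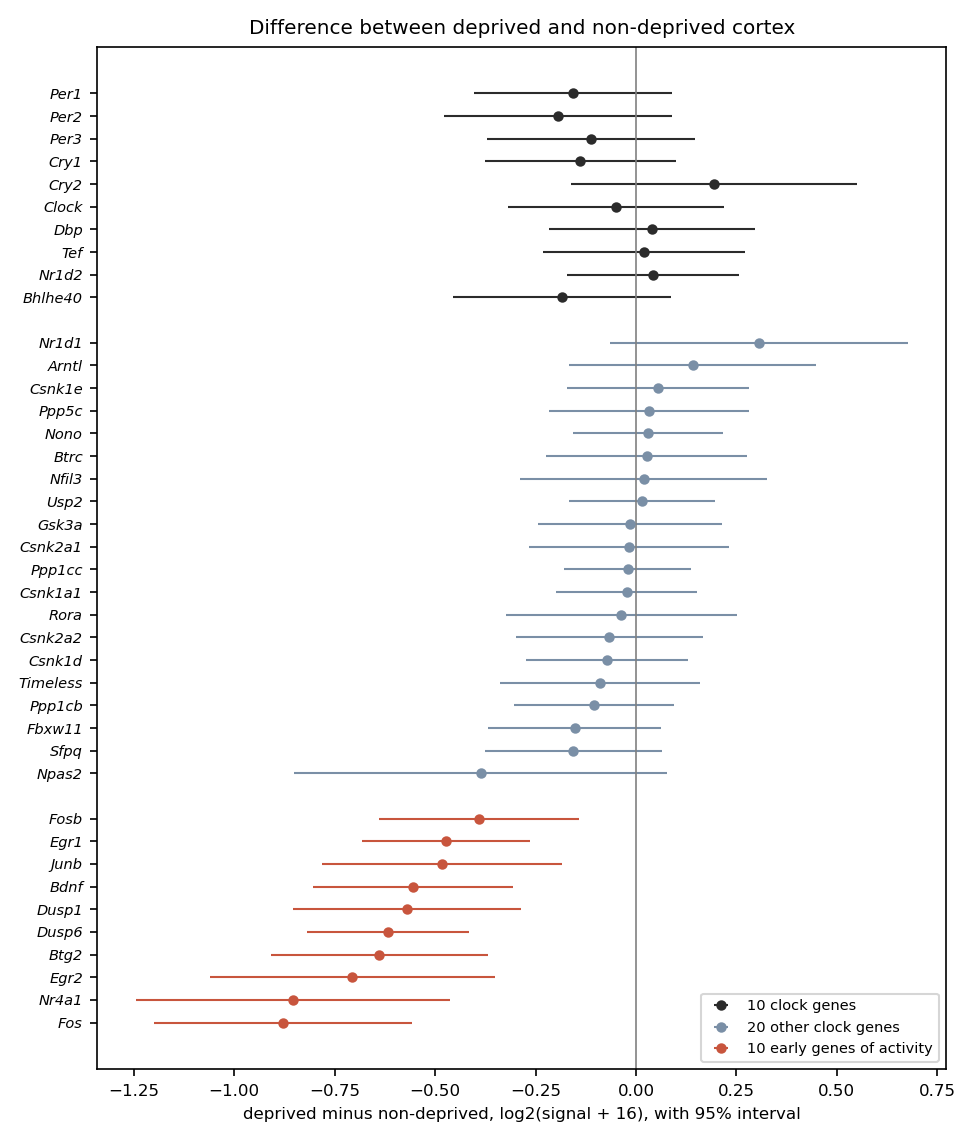
Deprived minus non-deprived difference in log2(signal + 16) with its 95% limma interval (x axis) for the 10 clock genes (black), 20 other tested clock genes (grey blue) and 10 early genes of activity (red), each on its brightest probe set, n = 5 arrays per group. All 30 clock gene intervals drawn cross 0, while the 10 early gene intervals lie below it.

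Transcripts of pathways known to signal to the Per genes were read beside them, from lists chosen with earlier results of these data known. These are RNA levels, and the activity of the pathways was not measured. Of 19 listed genes of CREB and its partners, 9 were on the array and 7 were tested on their brightest probe set. Creb1 itself was below the signal filter and was not tested. None of the 7 had an unadjusted limma p under 0.05. Prkaca, a catalytic subunit of protein kinase A, had a log2 difference of -0.15 ± 0.10 (SE), the cAMP-responsive factor Crem -0.19 ± 0.17, the coactivator Crebbp 0.12 ± 0.15 and the bright Prkacb 0.02 ± 0.10. Of 14 listed glucocorticoid-responsive genes, 11 were tested, while Nr3c1, Tsc22d3 and Sult1a1 were below the signal filter. Of these 11, 1 was higher and 1 lower at an unadjusted limma p under 0.05, and none passed after adjustment. Over all tested probe sets, 4.79% had such a p in either direction. The higher gene was Ddit4, an mTOR inhibitor (0.22 ± 0.08), and the lower was the cell-cycle inhibitor Cdkn1a (-0.37 ± 0.12). Cdkn1a has 2 probe sets, and only the brighter was read. The kinase gene Sgk1 had -0.19 ± 0.12, and the bright Mt2 and Klf9 had 0.06 ± 0.18 and 0.03 ± 0.09.

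Per1 was set directly against the 10 early genes of activity, a test added after the values were seen. All 10 early genes were lower at an unadjusted limma p under 0.05, with a median of -0.59 in log2. Over all tested probe sets, 4.79% had such a p in either direction. None of the early genes passed after adjustment over all probe sets. The brightest of them, Egr1 and Dusp1, had -0.47 ± 0.10 and -0.57 ± 0.13 (SE), and Dusp6, with the smallest p, had -0.62 ± 0.09. In each of the 10 comparisons the log2 difference of Per1 was less negative than that of the early gene, by 0.23 ± 0.22 (SE, against Fosb) to 0.72 ± 0.25 (against Fos). The exact permutation p was 0.0317 for Fos, 0.0238 for Nr4a1 and 0.0317 for Btg2, and between 0.0556 and 0.373 for the other 7. Adjusted over the 10 comparisons, none passed 0.05 (smallest exact p of 0.106). A smaller response of Per1 than of these genes was therefore not shown by this test, and the early genes had been listed with their own differences known.

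Within groups, the clock genes varied between arrays about as much as other genes. The median SD around the group mean was 0.19 in log2 for the 10 genes and 0.20 for all tested probe sets. Cry2 had the largest, 0.30, at the 82nd percentile of all tested probe sets. The ratio of the highest to the lowest of the 10 arrays was 1.34 for Nr1d2 and 1.95 for Cry2, with the other 8 genes between. Deprived replicate 2 was the highest or lowest of its group for 7 of the 10 genes: highest for Per1, Cry1 and Dbp, and lowest for Per2, Cry2, Tef and Nr1d2. Over all tested probe sets this array also deviated most from its group mean (SD of 0.28 in log2, against 0.18 to 0.25 in the other 9 arrays). Non-deprived replicate 3 was the highest of its group for 6 genes and the lowest for Dbp.

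**Figure D4:**
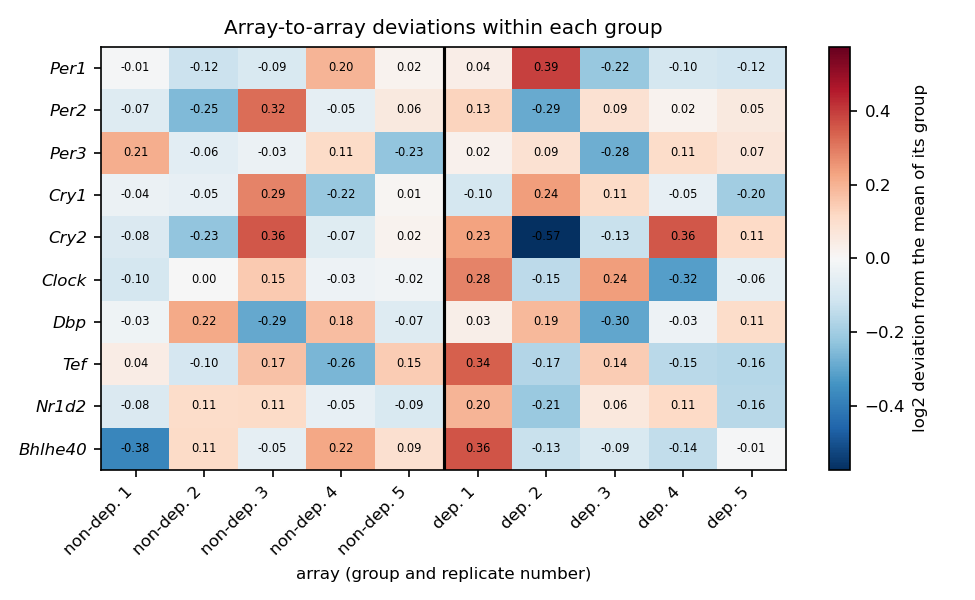
Deviation of each array (columns, by group and replicate number) from the mean of its group, in log2(signal + 16), for the 10 clock genes (rows); red is above and blue below the mean. Per2 and Cry2 share high values in non-deprived replicate 3 and low values in deprived replicate 2, and Dbp is low in replicate 3 of both groups.

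These deviations were compared between genes, which the contrast of the groups does not use. Of 45 gene pairs, 26 had a correlation above 0 and 19 below, over 10 arrays. Per2 and Cry2 had the strongest (Pearson r = 0.83, exact within-group permutation p = 0.00618; Spearman rho = 0.721, p = 0.0319), and r was 0.616 without the 2 arrays farthest from the median of Per2. Per2 and Dbp went in opposite directions (r = -0.78, exact p = 0.0196; rho = -0.75, p = 0.0267; r = -0.65 without 2 arrays). Clock and Tef went together (r = 0.746, exact p = 0.0344; rho = 0.709, p = 0.0353; r = 0.62 without 2 arrays). Adjusted over the 45 pairs, none passed 0.05, and the exact permutation p was 0.278 for the first.

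Among 6732 other tested probe sets with 1 symbol, those whose within-group deviations were most like Per1 over the 10 arrays were Srcin1 (Pearson r of 0.949), Aldh2 (0.942), Blvra (0.915), Acadl (0.903) and Fam216a (0.899). For Per2 they were Cd34 (0.948), Dcaf12 (0.946), Artn (0.933), Arih1 (0.931) and Scn8a (0.925). These are the highest of many correlations over 10 arrays and are given as a description. No gene was in both lists of 5.

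Array medians lay between 191 and 209 units, and arrays of one group correlated at 0.957 to 0.979 across tested probe sets. The cortical marker Tbr1 was bright in both groups (mean 6307 and 6334 in deprived and non-deprived cortex). Avp, a peptide of the hypothalamic clock, was dim (28.8 and 28.9). Vip and Oxt, listed with Avp under hypothalamus and suprachiasmatic nucleus, were above the signal filter. Vip was at 184 and 181 and Oxt at 493 and 504 in deprived and non-deprived cortex. Hcrt, of the same list, was below the filter (92.9 and 95.2). What these signals say about the dissected region was not tested. The choroid plexus markers Ttr, Folr1 and Kl were all below the signal filter. Summed marker signals of neurons, astrocytes, oligodendrocytes, microglia, endothelium, deeper brain regions and erythrocytes overlapped between the groups. Of the 35 tested markers of all these lists, 1 had an unadjusted limma p under 0.05, against 4.79% of all tested probe sets. It was Slc1a2, a glutamate transporter of astrocytes, higher in deprived cortex. None passed after adjustment.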

How the data were processed

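RNA of 10 visual cortex samples was measured on 1 Affymetrix array each, from about 10 µg of total RNA per the labels. The deposited table holds MAS5 intensities (linear signals), per the submitters' processing notes; MAS5 summarises perfect-match and mismatch probes, and the sources used here give neither its version nor its scaling target. The trimmed mean was 500 on all 10 arrays, so the authors' values had been scaled per array, and differences are relative to the array's average. No detection calls were used, and precision is limited by the number of arrays.

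Control probe sets (66 of 12488) were left out. Symbols came from a platform annotation updated through Entrez IDs (10833 probe sets with 1 symbol, 396 with several, 1193 with none). Intensities were converted to log2(value + 16), 16 being the 10th percentile of all values; folds of dim probe sets are understated. Probe sets below the 40th percentile of mean log2 value were not tested. The 7453 left were fitted in limma 3.58.1 (R 4.3.3; eBayes with trend) as deprived against non-deprived, with Benjamini-Hochberg adjustment at 0.05. Single genes and paralog pairs were also compared by exact two-sided permutation over 252 assignments (smallest p 0.00794). Correlations used deviations from group means, permuted within groups. The fit was tested on simulated data.

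The members, lists and tests were chosen with earlier results of these data known. Named are all members, the 3 smallest p and 2 brightest of each list of pathway genes, and the 5 probe sets most like Per1 and Per2. In every list each gene was read on its brightest probe set, and dimmer ones were read only for the further clock genes. Arntl, Nfil3, Nr4a1, Fosb, Dusp1, Hspa1b, Tbr1, Avp, Vip, Oxt, Hcrt, the choroid plexus markers and Slc1a2 were named after their values were seen. Alternatives changed the pseudocount, filter, scaling, trend, replicate block and the arrays used.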

Additional observations from a re-analysis of the deposited data

Results flagged for a closer look

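Of 20 groups of 5 arrays (10 genes in 2 conditions), 3 held an array set apart from the other 4 by Dixon's test on the log2 scale. For normally distributed values, chance alone gives about 1 in 20. The share over all tested probe sets was not computed, so the count cannot be read as a trait of the clock genes. All 3 were deprived arrays. Per2 was lowest in deprived replicate 2, at 185.7. Per3 was lowest in deprived replicate 3, at 211.2. Bhlhe40 was highest in deprived replicate 1, at 1195.3, on the side of the non-deprived arrays.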

How the results depend on the processing

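No clock gene passed an adjusted p of 0.05 under any of the 17 or 18 alternatives in which it was tested. Per1, Per2, Per3, Cry1 and Bhlhe40 kept a difference below 0 and Cry2 one above 0 in all of these. With single arrays left out, differences ran from -0.12 to 0.029 for Clock, -0.033 to 0.11 for Dbp, -0.065 to 0.062 for Tef and -0.0058 to 0.097 for Nr1d2. They ran from -0.25 (without deprived replicate 2) to -0.10 (without deprived replicate 3) for Per1, -0.26 (without non-deprived replicate 2) to -0.11 (without non-deprived replicate 3) for Per2, -0.17 (without non-deprived replicate 5) to -0.042 (without deprived replicate 3) for Per3, -0.20 (without deprived replicate 2) to -0.067 (without non-deprived replicate 3) for Cry1, 0.11 (without deprived replicate 4) to 0.34 (without deprived replicate 2) for Cry2 and -0.28 (without non-deprived replicate 1) to -0.13 (without non-deprived replicate 4) for Bhlhe40. The difference of Tef was -0.014 under median scaling. The number of clock genes at an unadjusted p under 0.05 was 0 under all 8 alternatives with all arrays and 0 to 2 with single arrays left out (Per1 and Cry2 without deprived replicate 2, Bhlhe40 without deprived replicate 1 or without non-deprived replicate 1). Over all probe sets, 2 passed the adjusted threshold with a pseudocount at the 20th percentile, 2 with a filter at the 60th percentile, 6 with the replicate block and 0 to 5 with single arrays left out. Under median scaling 27.9% of probe sets at an unadjusted p under 0.05 were higher in deprived cortex, against 50.7% without it.

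With single arrays left out, the paired difference of log2 differences ran from -0.13 to 0.11 for Per1 against Per2, -0.12 to 0.018 for Per1 against Per3, -0.17 to 0.012 for Per2 against Per3, -0.095 to 0.13 for Dbp against Tef and -0.54 to -0.23 for Cry1 against Cry2, and none passed after adjustment; the -0.54, without deprived replicate 2, had an exact permutation p of 0.0159 (adjusted 0.0794). No pair changed its call with another pseudocount. The next brightest Cry1 probe set lies near the floor and says nothing about the pair. The count of correlated pairs stayed at 0 with other pseudocounts. Same-numbered arrays deviated together at 0.14, 0.18, 0.22, 0.23 and 0.02 across tested probe sets. Of the arrays, 4 of 5 deprived and 5 of 5 non-deprived correlated best with their own number, a hint from the data and not the design. The last pair did not exceed 0.1 and the labels do not give shared animals, so the main tests were unpaired. The unpaired tests take no account of this likeness of same-numbered arrays. Over all tested probe sets, 472 had an unadjusted limma p under 0.05 with the replicate block, against 357 without it. With the replicate block no clock gene passed (smallest adjusted p 0.798); the residual SD was 0.099 against 0.196 without it for Dbp, and larger with it for Bhlhe40 (0.304 against 0.22), Per1 (0.221 against 0.19) and Nr1d2 (0.163 against 0.144). The cause of these shifts was not tested.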
